A study of Mus musculus with 20 samples.

Results

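The regions described here are stretches of mouse chromatin that were called open in non-Tfh CD4 T cells and mostly not in follicular helper T (Tfh) cells, whether or not the cells carried the Tomato mark. Open intervals (islands) of 8 DNase libraries were merged wherever they overlapped or touched, which gave 25755 regions. A region was retained when it held an island in 3 or 4 of the 4 non-Tfh libraries and in 0 or 1 of the 4 Tfh libraries. This left 1454 non-Tfh-leaning regions, or 5.65% of all merged regions, with a combined width of 3.63 Mb out of 85.1 Mb. These regions were selected on the presence of islands in the same libraries, so their non-Tfh lean is a description and is not tested.

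All DNase libraries came from draining lymph nodes on day 16 after immunization of mice with the AS15 peptide in complete Freund's adjuvant (CFA). The 4 groups, with 2 libraries each, were non-Tfh Tomato+ and non-Tfh Tomato- cells (CXCR5-low PD1-low) and Tfh Tomato+ and Tfh Tomato- cells (CXCR5-high PD1-high), each sorted as AS15 tetramer-binding cells. Every group carried the same alleles on a C57BL/6 background, T-bet-Cre and Rosa26-loxP-STOP-loxP-tdTomato. Cre activity driven by T-bet removes the stop and marks a cell and its progeny for good, so Tomato+ cells may express T-bet or may only have done so in the past. Separate animals, donors or cultures are not named for the replicates, so the replicate part of the spread behind the permutation p-values may be technical. Non-Tfh Tomato- replicate 2 stood apart from the other non-Tfh libraries in how many of the regions it held (687, against 1314 to 1388), and without it, with 3 of 3 non-Tfh and at most 1 of 4 Tfh libraries required, 1182 regions passed.

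Tfh cells enter B cell follicles, where they help B cells under the control of the repressor Bcl6, while non-Tfh effector cells of the same response move to other sites and make cytokines such as interferon gamma. DNase I cuts DNA where nucleosomes are displaced, which happens at promoters and enhancers, so regions open in one population and not in another mark candidate regulatory DNA. Low-input DNase sequencing of sorted cells is sparse, and the islands are the places where an authors' caller found reads packed above its background. In bulk material, fewer cells with an open site and less access per cell cannot be told apart. Regions are given by position on mm9, since neither gene positions nor sequence of that build was used here.

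The grid of library counts shows where the retained regions lie among all regions. Its largest class was the regions found in all 8 libraries, 10598 of 25755. Of the 1454 non-Tfh-leaning regions, 130 had an island in all 4 non-Tfh libraries and in no Tfh library (0.505% of all regions), 273 in all 4 and in 1 Tfh library, 542 in 3 and in none, and 509 in 3 and in 1. The mirror-image rule, with the sorts exchanged, found 599 Tfh-leaning regions (2.33% of all regions), of which 68 were in all 4 Tfh and no non-Tfh library (0.264%). Just inside the limits, the 1051 regions in 3 of 4 non-Tfh libraries had a median width of 2200 bp and the 782 regions with 1 Tfh island a median width of 2600 bp. Just outside, 1101 regions were in 3 or 4 non-Tfh and 2 Tfh libraries (median 2800 bp), and 2512 were in 2 non-Tfh and 0 or 1 Tfh libraries (median 1800 bp).

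**Figure D1:**
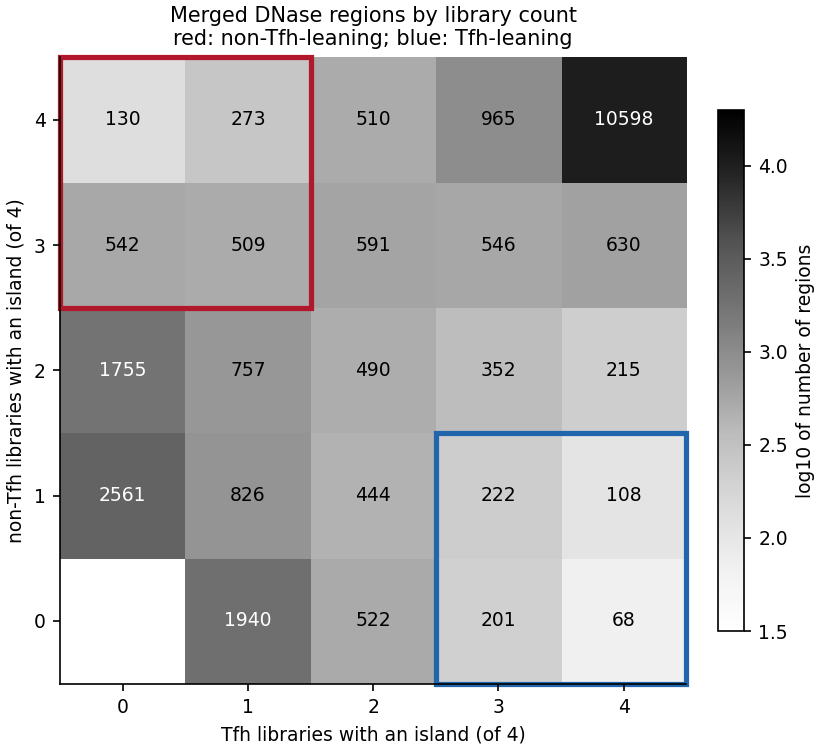
Number of merged DNase regions by how many of the 4 non-Tfh libraries (vertical axis) and of the 4 Tfh libraries (horizontal axis) held an island, with grey on a log10 scale. The red frame holds the 1454 non-Tfh-leaning regions and the blue frame the 599 Tfh-leaning ones, while the top right cell holds the 10598 regions of all 8 libraries.

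The libraries differed in how many islands they held. The authors' caller gave 20460 and 21222 islands in the non-Tfh Tomato+ libraries and 18061 and 14980 in the non-Tfh Tomato- libraries, against 14084 and 15374 in the Tfh Tomato+ and 18742 and 17531 in the Tfh Tomato- libraries. The most islands were in the non-Tfh Tomato+ pair and the fewest in Tfh Tomato+ replicate 1, and the ranges of the sorts overlapped. Non-Tfh libraries averaged 18681 ± 2811 islands and Tfh libraries 16433 ± 2096 (SD, n = 4 each; exact permutation test, two-sided, p = 0.257, smallest possible 0.0286). Both Tomato states of a sort were pooled here, so this spread holds differences between Tomato states as well as between replicates. Among Tomato+ libraries both non-Tfh ones lay above both Tfh ones, whereas among Tomato- libraries the sorts overlapped. The islands covered 36.1 ± 2.84 Mb in non-Tfh and 40.0 ± 2.23 Mb in Tfh libraries (exact permutation p = 0.0857). On average the non-Tfh libraries had more islands and less covered length, though neither difference passed.

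When each library was reduced to its 14084 highest-scoring islands, the order turned round: 719 of 19706 regions leaned to non-Tfh (3.65%) and 915 to Tfh (4.64%). Of the 1454 regions, 377 overlapped one of the 719, which is 25.9% of the larger and 52.4% of the smaller set. The 377 had a median width of 2600 bp, and the other 1077 of 2200 bp. This reduction changes both the number of islands and the lowest score admitted, and their parts were not tested separately. The order also turned round when a library counted only if its islands covered at least 50% of the region, with 1019 non-Tfh-leaning and 2000 Tfh-leaning regions.

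**Figure D2:**
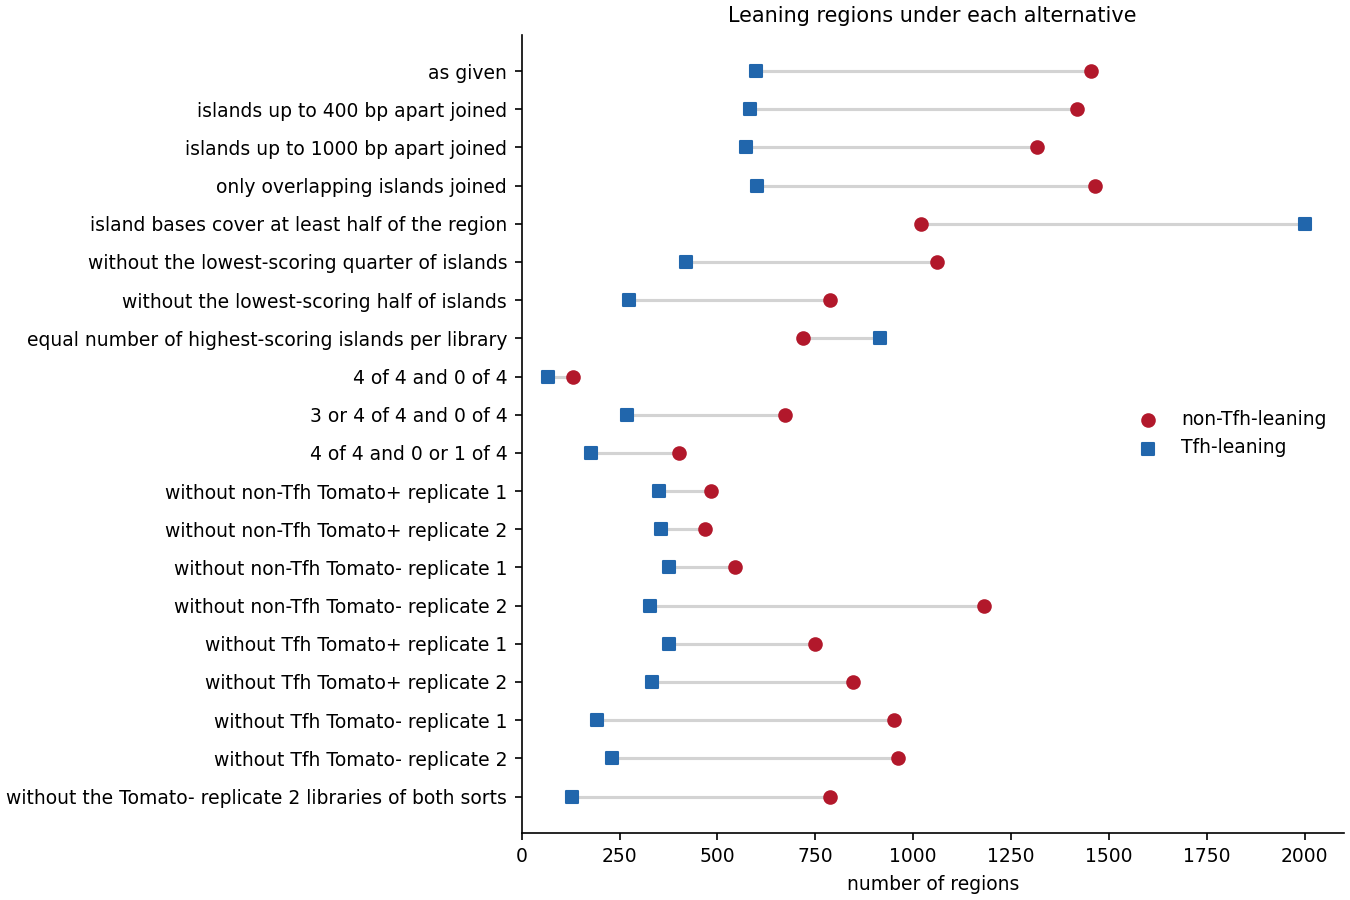
Number of non-Tfh-leaning (red circles) and Tfh-leaning regions (blue squares) under each processing alternative. With equal island numbers the counts were 719 and 915, and with at least 50% of the region covered they were 1019 and 2000; under every other alternative shown the red circle lies to the right.

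The non-Tfh-leaning regions were not spread evenly over the Tomato states. An island was present in 1376 of them (94.6%) in non-Tfh Tomato+ replicate 1, in 1388 (95.5%) in Tomato+ replicate 2, in 1314 (90.4%) in Tomato- replicate 1 and in 687 (47.2%) in Tomato- replicate 2. Non-Tfh Tomato- replicate 2 stood apart from the other non-Tfh libraries, and it also had the fewest islands among them. All 4 non-Tfh libraries held 403 of the regions (27.7%). Both Tomato+ libraries but a single Tomato- library held 907 (62.4%), and both Tomato- libraries but a single Tomato+ library held 144 (9.90%). For 767 regions (52.8%) the missing library was non-Tfh Tomato- replicate 2, so their presence in Tomato- cells rests on replicate 1. The missing library was Tomato- replicate 1 for 140, Tomato+ replicate 1 for 78 and Tomato+ replicate 2 for 66 regions.

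The comparison of Tomato states within non-Tfh cells is given without a test, since the rule used the islands of these same 4 libraries. The share of non-Tfh-leaning regions with an island averaged 95.0% ± 0.584 in Tomato+ and 68.8% ± 30.5 in Tomato- libraries (SD, n = 2 each). The groups did not overlap, with a difference of 26.2 percentage points, and Tomato- replicate 2 lay far below Tomato- replicate 1. Nor did the groups overlap in all islands called, 20460 and 21222 in the Tomato+ against 18061 and 14980 in the Tomato- libraries. With 14084 islands in each library, the same regions were present 611 and 669 times in the Tomato+ and 627 and 525 times in the Tomato- libraries, and the groups overlapped. The part of island number in the difference was not tested.

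**Figure D3:**
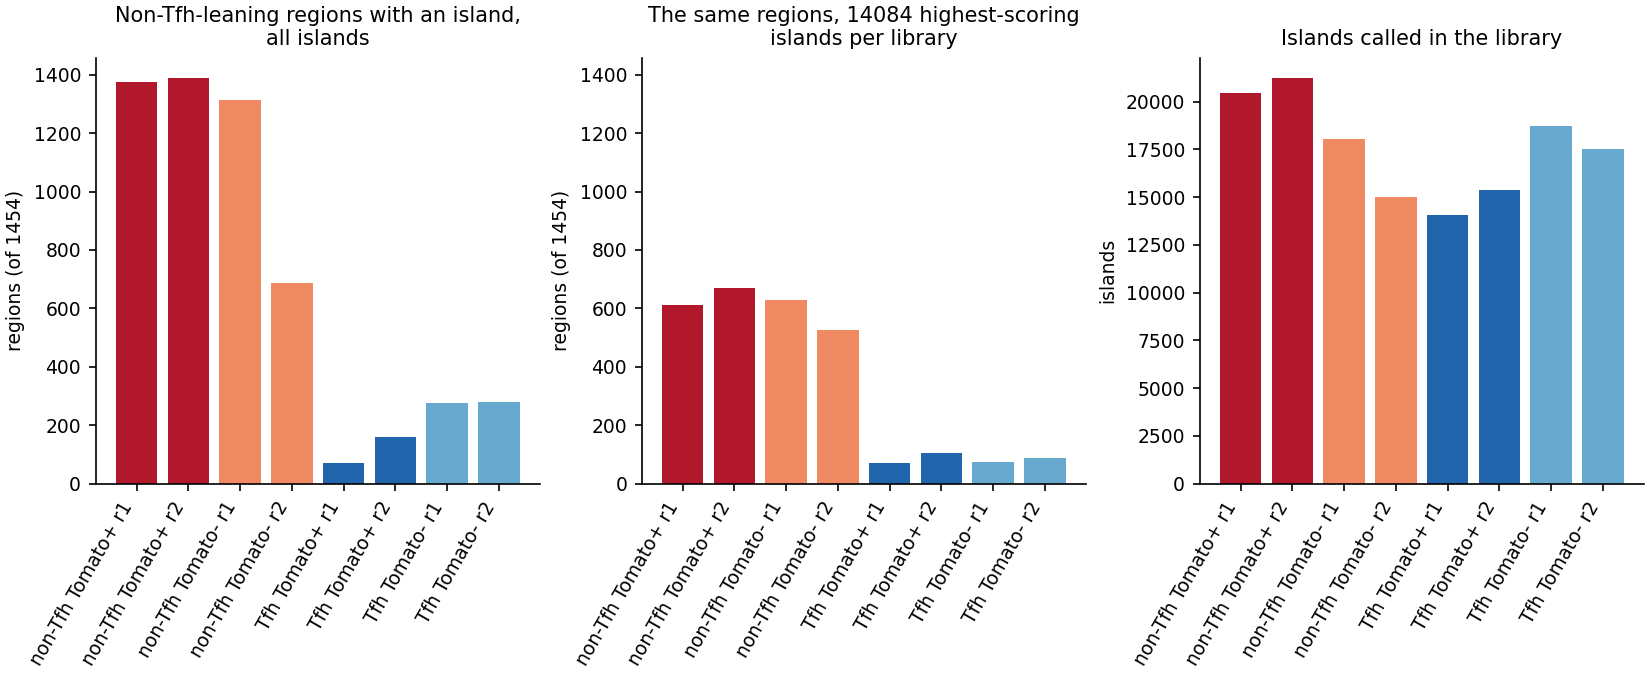
Number of the 1454 non-Tfh-leaning regions with an island in each library, from all islands (left) and from the 14084 highest-scoring islands of each library (middle), and the number of islands called in each library (right). Non-Tfh Tomato- replicate 2 holds 687 regions on the left and 525 in the middle, where the other non-Tfh libraries hold 611 to 669.

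In Tfh cells, 672 of the regions (46.2%) had no island and 782 (53.8%) had an island in a single library. That library was Tomato+ for 228 regions, 69 in replicate 1 and 159 in replicate 2, and Tomato- for 554, 276 in replicate 1 and 278 in replicate 2. Relative to all islands of each library these were 0.490% and 1.03% in Tfh Tomato+ and 1.47% and 1.59% in Tfh Tomato- libraries. Both Tomato- Tfh libraries lay above both Tomato+ ones, also after scaling to island number, which is a description since the rule used these islands. With equal island numbers the counts were 69 and 106 in Tfh Tomato+ and 75 and 87 in Tfh Tomato- libraries, which overlapped.

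RNA from the same 4 sorts, in separate libraries, gives the identity of the cells. The follicle-homing receptor gene Cxcr5 was at 27.8 to 113 RPKM (reads scaled by transcript length and library total) in non-Tfh and 258 to 394 RPKM in Tfh libraries, Pdcd1, which encodes PD1, at 89.9 to 183 against 542 to 715 RPKM, and Bcl6 at 21.1 to 31.6 against 95.2 to 139 RPKM. Of the 8 listed Tfh genes, 7 were lower in every non-Tfh than in every Tfh library. Icos, which encodes a costimulatory receptor, went the other way, at 228 to 294 RPKM in non-Tfh and 157 to 196 RPKM in Tfh libraries. The share of all genes that separate the sorts in this way is not given here, so the count only describes the list. The T cell gene Cd3e was at 202 to 278 RPKM in non-Tfh and 197 to 300 RPKM in Tfh libraries. Tbx21, which encodes T-bet, was at 183 and 163 RPKM in non-Tfh Tomato+, 10.4 and 10.5 in non-Tfh Tomato-, 105.9 and 53.0 in Tfh Tomato+ and 12.8 and 12.9 RPKM in Tfh Tomato- libraries.

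The summed level of macrophage and monocyte transcripts was lower in the Tomato+ than in the Tomato- libraries of both sorts. All 6 listed macrophage and monocyte genes were found, with none at 0, and their summed level was 72.3 to 119.9 RPKM in non-Tfh Tomato+, 1031 to 1041 in non-Tfh Tomato-, 233 to 260 in Tfh Tomato+ and 725 to 907 RPKM in Tfh Tomato- libraries. Most of each sum was Lyz2, which encodes lysozyme, at 63.9 to 105 RPKM in non-Tfh Tomato+, 898 to 948 in non-Tfh Tomato-, 199 to 244 in Tfh Tomato+ and 666 to 827 RPKM in Tfh Tomato- libraries. Both Tomato+ libraries lay below both Tomato- libraries for 5 of the 6 genes in non-Tfh and for 3 of the 6 in Tfh cells. The values overlapped for Itgam in both sorts and for Cd68 and Cybb in Tfh cells. How many of all genes separate the Tomato states in this way is not given here, so these counts only describe the list. Of the neutrophil list 3 of 4 genes were found, and the sum was highest in the replicate 2 Tomato- libraries, at 301 RPKM in non-Tfh and 396 RPKM in Tfh cells, against 0.752 to 79.6 RPKM in the other 6 libraries; Csf3r was at 0 in 2 libraries. The 5 B cell genes summed to 95.7 to 126 RPKM in non-Tfh and 76.3 to 103 RPKM in Tfh libraries, with Pax5 at 0 in 3 libraries. The dendritic cell sum was 4.78 to 21.0 RPKM in non-Tfh and 4.52 to 5.22 RPKM in Tfh libraries, with Flt3 at 0 in 3 of the Tfh libraries. The natural killer cell sum was higher in the Tomato+ libraries of both sorts. In non-Tfh cells it was 42.6 and 47.2 RPKM in Tomato+ against 11.5 and 7.38 RPKM in Tomato- libraries. In Tfh cells it was 47.8 and 28.0 against 14.0 and 8.45 RPKM. Most of each Tomato+ sum was the single gene Klrk1, at 37.8 and 35.2 RPKM in non-Tfh and 28.8 and 18.0 RPKM in Tfh cells. Klrb1c of this list overlapped in both sorts, and Ncr1 was at 0 in both Tfh Tomato- libraries. The part of other cells in the DNase islands was not tested.

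Islands in the non-Tfh-leaning regions ranked below those in regions of all 8 libraries, as did islands in other regions of few libraries. Scores can be compared only within a library, so each island was given its percentile among all islands of its library. The median percentile was 27.8 and 32.5 in the non-Tfh Tomato+ libraries and 21.0 and 13.4 in the non-Tfh Tomato- libraries. Tomato+ libraries lay above Tomato- ones, with means of 30.2 ± 3.31 and 17.2 ± 5.41 (SD, n = 2 each). In the Tfh libraries it was 8.87 and 12.8 for Tomato+ and 16.6 and 12.6 for Tomato-. Regions of 3 to 5 libraries that lean to neither side ranked lower in the non-Tfh libraries, with medians of 21.0 and 23.4 in Tomato+ and 17.6 and 11.5 in Tomato-. In the Tfh libraries they ranked higher than the non-Tfh-leaning regions, at 12.8 and 14.2 in Tomato+ and 20.7 and 16.8 in Tomato-. The rule chose regions by islands of these same libraries, so these orders are a description. Regions of all 8 libraries had medians of 72.5 and 72.9 in non-Tfh Tomato+, 69.8 and 63.9 in non-Tfh Tomato- and 61.7 to 71.2 in the Tfh libraries. Within the non-Tfh libraries Tomato+ thus lay above Tomato- in each of these 3 classes, whereas in Tfh-leaning regions both Tomato+ medians, at most 12.8, lay below both Tomato- medians, 13.8 and 18.1. Islands above the 50th percentile made up 15.5% and 23.7% of those in non-Tfh Tomato+, and 6.39% and 1.60% in non-Tfh Tomato- libraries. A percentile also depends on how many low-scoring islands its library holds. The non-Tfh Tomato+ libraries held more islands, 20460 and 21222 against 18061 and 14980 in the Tomato- ones. The part of island number in these percentile differences was not tested.

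**Figure D4:**
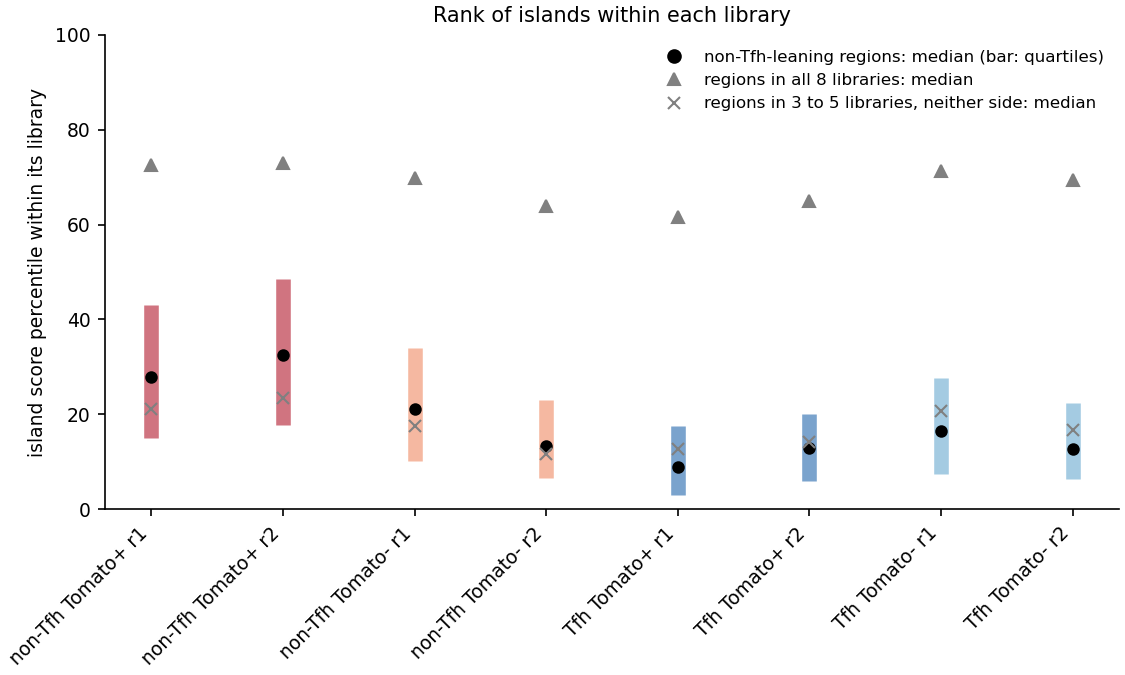
Score percentile, within its library, of islands in the non-Tfh-leaning regions (black points, medians; bars, quartiles), in regions of all 8 libraries (triangles, medians) and in regions of 3 to 5 libraries that lean to neither side (crosses, medians). The non-Tfh-leaning medians lie between 8.87 and 32.5, and the triangles between 61.7 and 72.9.

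The 12 regions with the firmest support were chosen among the 130 with islands in all 4 non-Tfh and no Tfh library, by the highest value of the lowest percentile. Percentiles below are given for non-Tfh Tomato+ replicates 1 and 2 and then for non-Tfh Tomato- replicates 1 and 2. The first, chr19:53612801-53616000, is 3200 bp wide and ranked at 50.6 and 67.4 in Tomato+ and at 52.1 and 52.1 in Tomato- libraries. It was the only one of the 130 above the 50th percentile in every non-Tfh library, and 16 of the 130 were above the 25th percentile in all 4. Another non-Tfh-leaning region lay 800 bp from it, and the nearest region of all 8 libraries 4000 bp away.

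The second, chr8:117402401-117407600, is 5200 bp wide and ranked at 57.0 and 44.6 in Tomato+ and at 49.2 and 56.0 in Tomato- libraries. It stood alone, with the nearest region of all 8 libraries 86000 bp away. The third, chr11:78412601-78415000, ranked at 63.9 and 58.9 in Tomato+ and at 41.3 and 39.3 in Tomato- libraries. The fourth, chr15:73004201-73008200, ranked at 65.6 and 67.1 in Tomato+ and at 47.6 and 39.2 in Tomato- libraries, so in both of these regions Tomato+ lay above Tomato-. The fifth, chr13:94362401-94364000, ranked at 65.0 and 61.4 in Tomato+ and at 61.4 and 36.7 in Tomato- libraries. The sixth, chr17:46971601-46972800, ranked at 61.7 and 60.7 in Tomato+ and at 60.1 and 33.9 in Tomato- libraries. In both of these, 3 libraries lay close together and Tomato- replicate 2 was lower.

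The seventh region, chr5:107507601-107510200, ranked at 33.8 and 51.6 in Tomato+ and at 62.6 and 33.0 in Tomato- libraries, with its highest value in Tomato- replicate 1. The eighth, chr17:33688601-33696000, is the widest of the 12 with 7400 bp, and ranked at 32.5 and 47.7 in Tomato+ and at 31.7 and 33.6 in Tomato- libraries. The remaining 4 were chr13:73873201-73875600, chr5:77573601-77574400, chr8:74802401-74803600 and chr9:94340601-94343000, whose lowest percentiles were 30.0, 29.7, 29.1 and 27.6. Non-Tfh Tomato- replicate 2 gave the lowest percentile in 9 of the 12. Of the 12, 2 lay within 10 kb of a region of all 8 libraries.

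The 3 widest non-Tfh-leaning regions each had islands in 3 non-Tfh libraries and in 1 Tfh library. The widest, chr14:56378601-56388200 with 9600 bp, ranked at 36.3 and 25.7 in non-Tfh Tomato+ and at 12.3 in non-Tfh Tomato- replicate 2, but also at 33.0 in Tfh Tomato+ replicate 1. The next, chr3:132471801-132480400 with 8600 bp, ranked at 41.2 and 5.68 in non-Tfh Tomato+ and at 31.7 in non-Tfh Tomato- replicate 1, and at 35.2 in Tfh Tomato- replicate 1. The third, chr11:118070001-118078200 with 8200 bp, ranked at 40.8 and 54.1 in non-Tfh Tomato+ and at 30.0 in non-Tfh Tomato- replicate 2, and at 10.7 in Tfh Tomato+ replicate 1. In the first and second of these the Tfh island ranked as high as some of the non-Tfh islands, and neither was retained with equal island numbers, whereas the third was.

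Non-Tfh-leaning regions were narrow. Their widths ran from 400 to 9600 bp with a median of 2200 bp (quartiles 1600 and 3000), against a median of 3800 bp in Tfh-leaning regions (2800 and 4600) and 2600 bp in the 2634 regions of 3 to 5 libraries that leaned to neither side (2000 and 3600). The order was the same at a fixed number of libraries. In regions of 3 libraries the medians were 1800 bp for non-Tfh-leaning, 3600 bp for Tfh-leaning and 2600 bp for the others; in regions of 4 libraries 2400, 3800 and 2700 bp; and in regions of 5 libraries 2800, 4200 and 3000 bp. Island width also differed between libraries, with medians over all islands of 1800, 1400, 1800 and 2200 bp in the non-Tfh and 2400, 2400, 2000 and 2000 bp in the Tfh libraries (mean 1800 ± 327 against 2200 ± 231, SD, n = 4 each; exact permutation p = 0.143). Islands inside the non-Tfh-leaning regions had medians of 1200 and 1000 bp in non-Tfh Tomato+ and 1400 and 1800 bp in non-Tfh Tomato- libraries, below the median of each library. The part of library-wide island width in the narrowness of the regions was not tested. In 68 regions (4.68%) at least 1 library held more than 1 island.

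**Figure D5:**
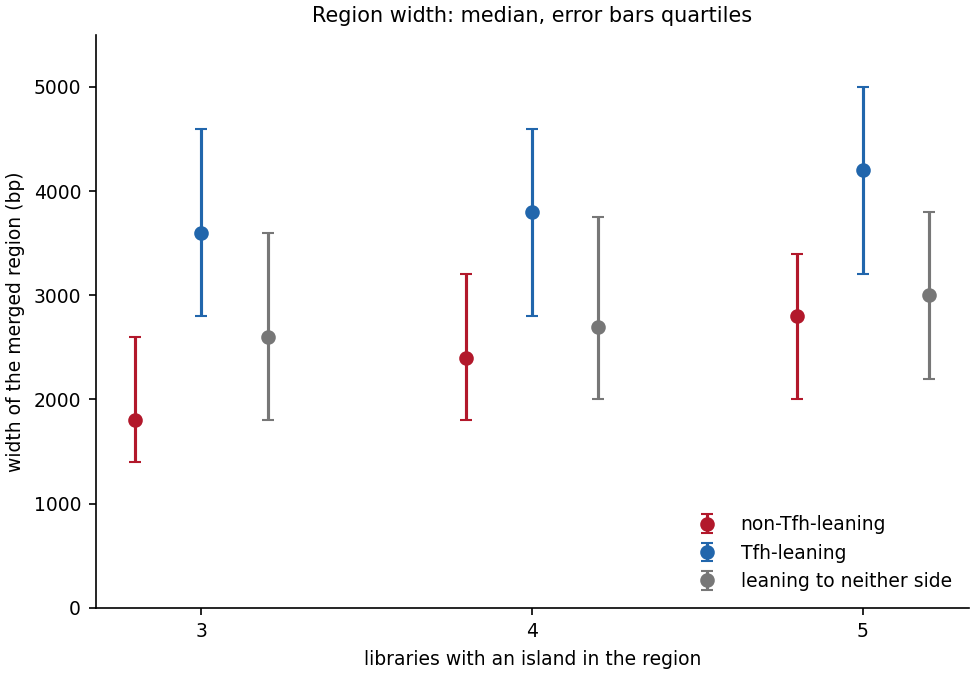
Width in bp (points, medians; error bars, quartiles) of regions with an island in 3, 4 or 5 libraries. Non-Tfh-leaning regions (red) have the lowest median at each number of libraries, 1800, 2400 and 2800 bp, and Tfh-leaning regions (blue) the highest, 3600, 3800 and 4200 bp.

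The non-Tfh-leaning regions lay close to other open chromatin. The nearest region of all 8 libraries was a median of 18.5 kb away (quartiles 6.20 and 49.4 kb), against 41.4 kb for Tfh-leaning regions and 24.0 kb for regions leaning to neither side. Within 10 kb of such a shared region lay 482 of the 1454 (33.1%), against 17.7% of Tfh-leaning regions and 27.3% of the others. Within 1 kb lay 86 (5.91%), and joining islands up to 1000 bp apart left 1316 regions. The nearest region of any kind was a median of 5.60 kb away, against 12.8 kb for Tfh-leaning regions and 8.40 kb for the others. These are distances between regions of the same libraries and carry no test.

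Some non-Tfh-leaning regions formed groups. Allowing gaps of up to 50 kb, 1074 stood alone, 262 formed 131 pairs and 118 formed 34 groups of 3 to 5 regions. Grouping was not particular to this class. Within 50 kb of another region of their own class lay 26.2% of non-Tfh-leaning regions. The share was 29.9% for the 2634 regions leaning to neither side and 9.68% for the 599 Tfh-leaning regions. The 3 groups of 5 regions are described here, with the first 2, in chromosome order, of the 10 groups of 4. The densest group of 5, chr15:55669801-55697200, packed 5 regions into 27.4 kb, with 1 region of all 8 libraries among them. Its islands were in all 5 regions in both non-Tfh Tomato+ libraries, in 4 in Tomato- replicate 1 and in 2 in Tomato- replicate 2. In Tfh libraries they were in 0 and 1 of the 5 regions for Tomato+ and in 1 and 1 for Tomato-. Its percentiles in Tomato+ replicate 2 ran from 28.3 to 55.8, and in each of the 5 regions lay above that in Tomato+ replicate 1, which ran from 6.39 to 29.9. With equal island numbers 1 of its 5 regions was retained.

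The group at chr4:32374201-32451600 had 3 of its 4 regions retained at equal island numbers and no region of all 8 libraries inside it. All 4 regions had islands in both Tomato+ libraries and in Tomato- replicate 1 of the non-Tfh cells, and 3 in Tomato- replicate 2, while 2 had an island in Tfh Tomato+ replicate 2. Its region chr4:32421201-32424200 ranked at 45.9 and 65.7 in non-Tfh Tomato+ and at 48.5 and 31.0 in non-Tfh Tomato- libraries, against 3.53 in Tfh Tomato+ replicate 2, the single Tfh library with an island there. The group at chr15:78344201-78446600 held 5 regions in 102.4 kb beside 4 regions of all 8 libraries. Its region chr15:78393801-78396000 ranked at 70.3 and 56.4 in non-Tfh Tomato+ and at 19.8 and 14.1 in non-Tfh Tomato- libraries, against 6.28 in Tfh Tomato+ replicate 1. Of its 5 regions 2 were retained at equal island numbers.

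The groups at chr9:116023201-116133400, with 5 regions in 110.2 kb, and at chr1:88235801-88327400, with 4 regions in 91.6 kb, kept 0 and 1 of their regions at equal island numbers. In the chromosome 9 group all 5 regions had islands in both non-Tfh Tomato+ libraries and in non-Tfh Tomato- replicate 1, and 2 in Tomato- replicate 2. Its Tfh islands ranked at 30.6 in Tomato+ replicate 2 and at 3.75 and 43.8 in Tomato-. The last, in chr9:116068401-116073400, lay above the non-Tfh islands there, at 31.8, 29.1 and 7.06. In the chromosome 1 group 4 and 3 regions had islands in non-Tfh Tomato+ and 4 and 2 in non-Tfh Tomato- libraries. In Tfh cells 0 and 1 had islands in Tomato+ and 2 and 0 in Tomato- libraries.

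Every chromosome except the mitochondrial one, for which the files list no island, held non-Tfh-leaning regions. On autosomes they made up 5.58% of 25305 regions, from 4.45% on chromosome 9 to 7.26% on chromosome 13, beside 2.36% for Tfh-leaning regions. On chromosome X they were 41 of 441 regions (9.30%), and Tfh-leaning regions were 2 (0.454%). Islands on chromosome X were 1.74% and 1.75% of all islands in non-Tfh Tomato+, 1.62% and 1.49% in non-Tfh Tomato-, 1.59% and 1.44% in Tfh Tomato+ and 1.54% and 1.51% in Tfh Tomato- libraries. The non-Tfh Tomato+ libraries had both the most islands and the largest shares on chromosome X. Among the other 6 libraries the shares lay between 1.44% and 1.62%. The part of island number in the count on chromosome X was not tested.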

How the data were processed

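DNase-accessible chromatin was measured in 8 libraries. The deposited files give each island a score set by the authors' caller. Per the file names, duplicates were dropped and each library was called on its own (window 200 bp, gap 400 bp, E-value 1). Per the submitters' processing notes the build was mm9 and tools included SICER 1.1 and Bowtie2. Read depth of the DNase libraries is unknown. RPKM deposited by the authors for 8 lymph node RNA libraries were used as levels only, with the highest transcript row per gene. Groups came from sample titles.

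Intervals were merged with Python 3.11.15 and pandas 2.3.3, and the merging and rule were tested on simulated islands and against bedtools. Score percentiles were ranked within a library. Island number, covered length and island width per library were compared between sorts, with Tomato states pooled, by exact two-sided permutation tests. Planned tests between Tomato states within the regions are not reported, since the rule used those islands. Regions were named by rank of their lowest percentile (12), by width (3) and by grouping within 50 kb (5 groups, ties in chromosome order). The regions, lists and rules were chosen with earlier results of these data known. Planned tests of nearby genes and motifs were not run, since gene positions and sequence on mm9 were not used here. No 2 libraries were copies, since 2.83% to 6.46% of islands were identical between any pair.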

Additional observations from a re-analysis of the deposited data

How the results depend on the processing

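Joining islands up to 400 or 1000 bp apart, or only overlapping ones, and leaving out the lowest-scoring 25% of islands kept both counts within 1.5 times. Counts of non-Tfh-leaning and Tfh-leaning regions were 787 and 273 without the lowest-scoring 50% of islands, 719 and 915 with equal island numbers, 130 and 68 for 4 of 4 and 0 of 4 libraries, 672 and 269 for 3 or 4 and 0, and 403 and 176 for 4 and 0 or 1. With at least 50% of the region covered, 2000 were Tfh-leaning. Stricter rules and fewer islands lower counts by construction; the cause of the turned order was not tested.

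Leaving out 1 library makes the limits stricter, 3 of 3 or 0 of 3. Non-Tfh-leaning regions then numbered 469 to 1182 and Tfh-leaning ones 192 to 377. The non-Tfh-leaning count was 483 and 469 without the non-Tfh Tomato+ libraries, 544 and 1182 without the Tomato- ones, 749 and 847 without the Tfh Tomato+ and 952 and 961 without the Tfh Tomato- libraries. Without the Tomato- replicate 2 libraries of both sorts, chosen after seeing the data, the counts were 787 and 128. Median width, not computed for this last setting, stayed between 2000 and 2800 bp under the others.

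With permutation only within a replicate block, island number (difference 2248) had p = 0.389 and covered length (-3.91 Mb) p = 0.111, both exact, and no call changed. Deviations of same-numbered libraries correlated at -0.101 to 0.123 over 6 pairs of groups. This cannot show whether same-numbered libraries were handled together. The replicate numbers were used in the block test only. The Tomato difference in percentile kept its direction in every alternative run, from 7.87 to 22.6 percentile points. The run with equal island numbers cannot check this direction. It left out the 6376 and 7138 lowest-scoring islands of the non-Tfh Tomato+ libraries, but 3977 and 896 of the Tomato- ones. Percentiles were taken among all islands of a library, so this cut raises those of Tomato+ more by construction. The Tomato difference in the share of regions became 0 wherever all non-Tfh libraries were required, by construction. With equal island numbers the difference was 10.4 points over the 719 regions that then passed, a different set from the 1454. In the 1454 regions the groups overlapped at equal island numbers. With at least 50% of the region covered, the difference was 11.4 points over 1019 regions, with overlapping groups. With islands alone, without read counts, counting error cannot be given.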
